A study of Mus musculus with 8 samples.

Results

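The serpins are a superfamily of proteins with 1 shared fold, and most of its members inhibit proteases. The members here were the rows of the deposited gene table with a symbol of the form Serpin followed by a clade letter from a to i and a number, which gave 64 of 38172 rows. The RNA came from bone marrow stem cells of the blood (HSCs), which sustain all blood lineages, sorted from WT (wild-type) C57BL/6 mice aged 4 months (young) or 24 months (old). The sort was SP-KSL-CD150+, meaning cells of the dye-excluding side population with Kit and Sca-1, without lineage markers and with CD150. There were 8 libraries, made from 2 biological replicates per age, numbered 13 and 14 at each age, with 2 technical libraries each. The labels do not say how many mice a replicate pooled, so p-values measure only the spread between these samples.

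A serpin presents an exposed reactive loop as bait; when a protease cuts it, the loop inserts into the body of the serpin and the protease is carried along and trapped, so each inhibitor molecule is used once. Some members have lost this activity and act as chaperones, hormone carriers or signalling proteins. Clade letters follow sequence relatedness. Clade A holds the relatives of alpha-1-antitrypsin, mostly secreted by the liver, and clade B the ov-serpins, which mostly stay inside cells. In bone marrow, serpins of both clades are known to oppose the elastase-like proteases of granulocyte granules.

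The table's count-like values, called scaled values here, were whole numbers the authors obtained by rescaling each library's reads. Their sum per library was between 40.74 M and 44.22 M, and the spacing of the values put the reads behind them between 22.26 M and 66.48 M. Each replicate value is the mean of its technical libraries. The sort markers were present, with Kit at 54958.5 to 63949.5 in the 4 replicates. The neutrophil marker list (12 of 12 genes matched) differed most between replicates, summing to 5410.5 and 13363 in young 13 and 14, and to 354 and 4782 in old 13 and 14. The 9 markers of granulocyte and monocyte progenitors summed to 10306 and 50374.5 in young 13 and 14 and to 15086 and 27964 in old 13 and 14. By age, all 12 neutrophil markers had a log2 fold change (old over young) below 0, with a median of -2.61. In limma, described below, 0 of these 12 passed after adjustment, with 6 at an unadjusted p under 0.05. Of the 9 progenitor markers 6 were below 0 and 3 above, with a median of -0.28. In a bulk sample, fewer cells of a type and less RNA per cell cannot be told apart.

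HSCs expressed few of the serpins. Of the 64 members, 26 were at 0 in all 8 libraries, 24 were above 0 but below the filter, and 14 were tested, having reached a scaled value of 10 in 2 or more replicates. Of all 38172 rows, 18318 were tested. Counting rows above 0 in at least 1 library gave 27330 of all rows and 38 of the members. Clades A and B held 53 of the members and 9 of the 14 tested ones (3 of 26 in clade A and 6 of 27 in clade B). Clades E, F, G, H and I gave 1 tested member each, while antithrombin (Serpinc1) and heparin cofactor II (Serpind1), the single members of clades C and D, did not pass the filter. A value of 0 allowed up to 3 reads, or a scaled value of up to 1.85 to 5.52 depending on the library, by counting error alone.

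**Figure D1:**
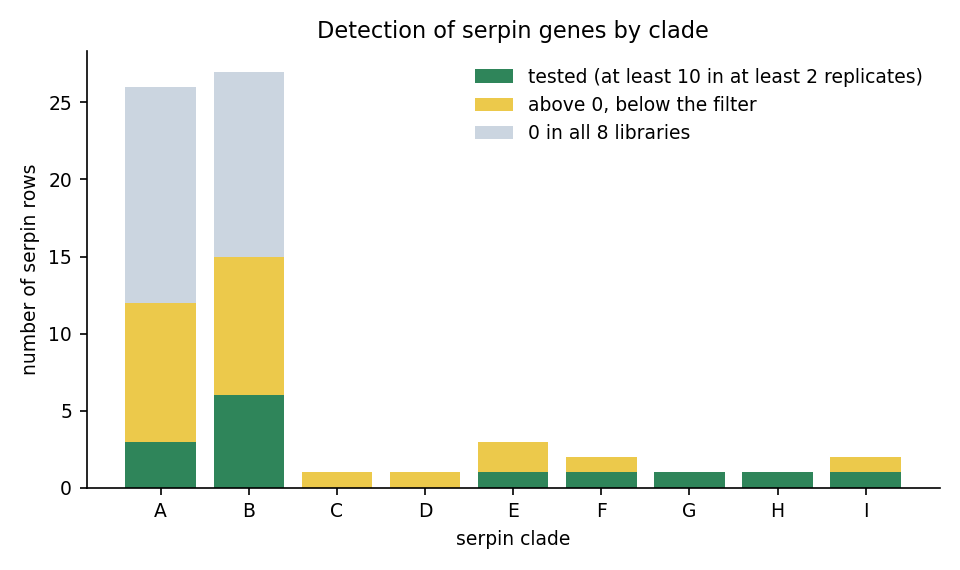
Number of serpin rows (vertical axis) in each clade (horizontal axis), coloured by whether they were tested, above 0 but below the filter, or 0 in all 8 libraries. Of the 27 clade B rows 6 were tested, and of the 26 clade A rows 3.

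Per gene length, in the authors' FPKM (the scaled value times 1 constant per gene), the serpin RNA of these cells came mostly from a handful of rows. The row of Serpina3f and Serpina3g had a mean of 76.4 FPKM over the 4 replicates, followed by Serpinf1 with 44.8, Serpinb1a with 32.9, Serpinb6a with 25.6 and Serpinb9 with 13.7. The lowest replicate of Serpina3f and Serpina3g (58.4) lay above the highest of Serpinf1 (52.3), whereas the ranges of Serpinf1, Serpinb1a and Serpinb6a each overlapped the next. Serpinb6b (9.70), Serpine2 (6.47), Serpinb8 (4.81), Serpinh1 (4.50) and Serpini1 (3.10) formed a chain in which each range overlapped the next. Serping1 (1.42 to 2.48 FPKM) and Serpinb10-ps (0.612 to 2.69) overlapped each other, and Serpina3n (0.244) and Serpina3i (0.098) were at the bottom. Of all serpin FPKM, clade A gave 38.7% and 37.6% in young 13 and 14, and 30.4% and 29.3% in old 13 and 14. Clade B gave 34.2% and 37.9% in the young and 41.2% and 43.2% in the old replicates. Clade A thus gave the larger share in young 13 and clade B in the other 3 replicates, by little in young 14; these shares were not tested.

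**Figure D2:**
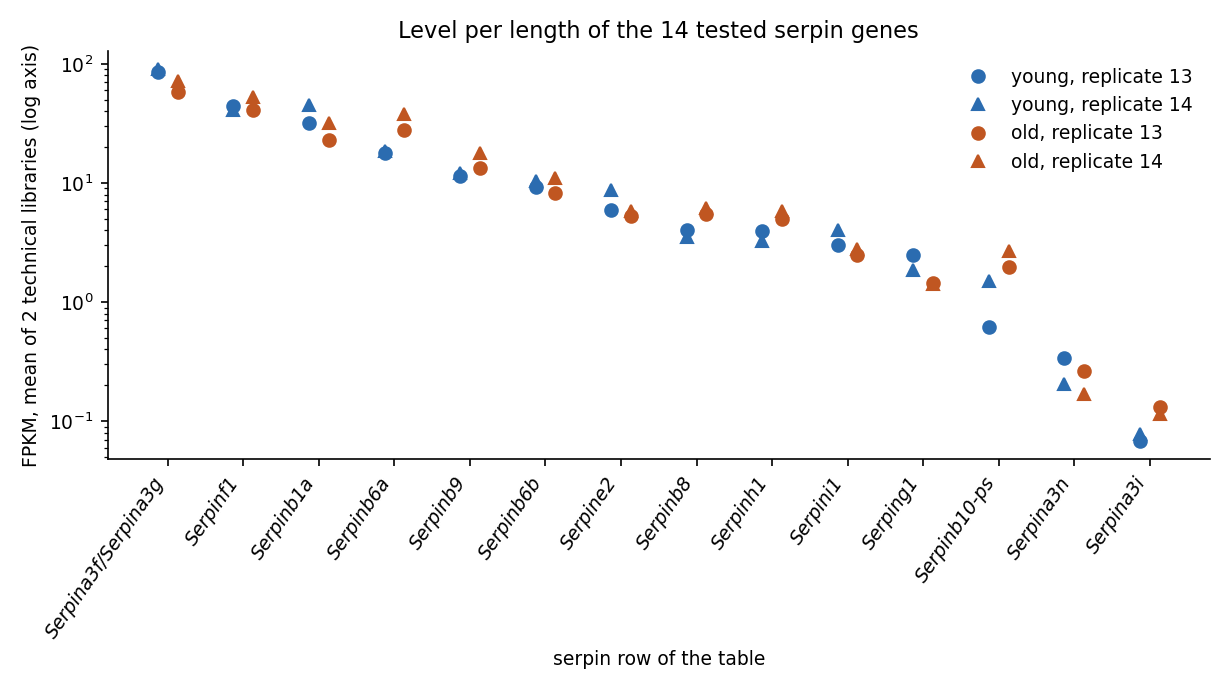
FPKM (vertical log axis) of the 14 tested serpin rows, ordered by mean, in each of the 4 biological replicates. Serpina3f/Serpina3g is highest in every replicate, between 58.4 and 90.1 FPKM, and Serpina3i lowest, between 0.069 and 0.133.

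The comparison of the ages asked which serpins differed between young and old HSCs. In limma, fitted over all 18318 tested genes, 0 of the 14 members passed (Benjamini-Hochberg adjusted p below 0.05), against 2.55% of all tested genes, of which 2.01% were higher and 0.54% lower in old HSCs. At an unadjusted p under 0.05 there were 5 of the 14, against 14% of all tested genes, and limma-voom also called 0 members, with 6 at an unadjusted p under 0.05. The following counts leave out Serpina3i, which passed the filter through the old replicates alone, and Serpina3n, the other row under 1 FPKM. The median log2 fold change (old over young) of the other 12 was 0.03 with 6 above and 6 below 0, and that of all tested genes was 0.04. The median size of the change without its sign was 0.46 for the 12 and 0.20 for all tested genes. In 10 of the 12 the old replicates did not overlap the young ones, 5 above and 5 below, an arrangement seen in 42.1% of all tested genes (24.7% above and 17.4% below). Serpina3n, left out here, did overlap. The set of all tested genes was not cut at 1 FPKM or for passing the filter through 1 age, so the 2 sets are not alike. In the authors' deposited table, whose comparison does not state which libraries were its replicates, 10 of the 14 were marked, 5 as higher and 5 as lower in old HSCs, against 14.4% of all tested genes. Those 10 were the same rows that did not overlap.

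**Figure D3:**
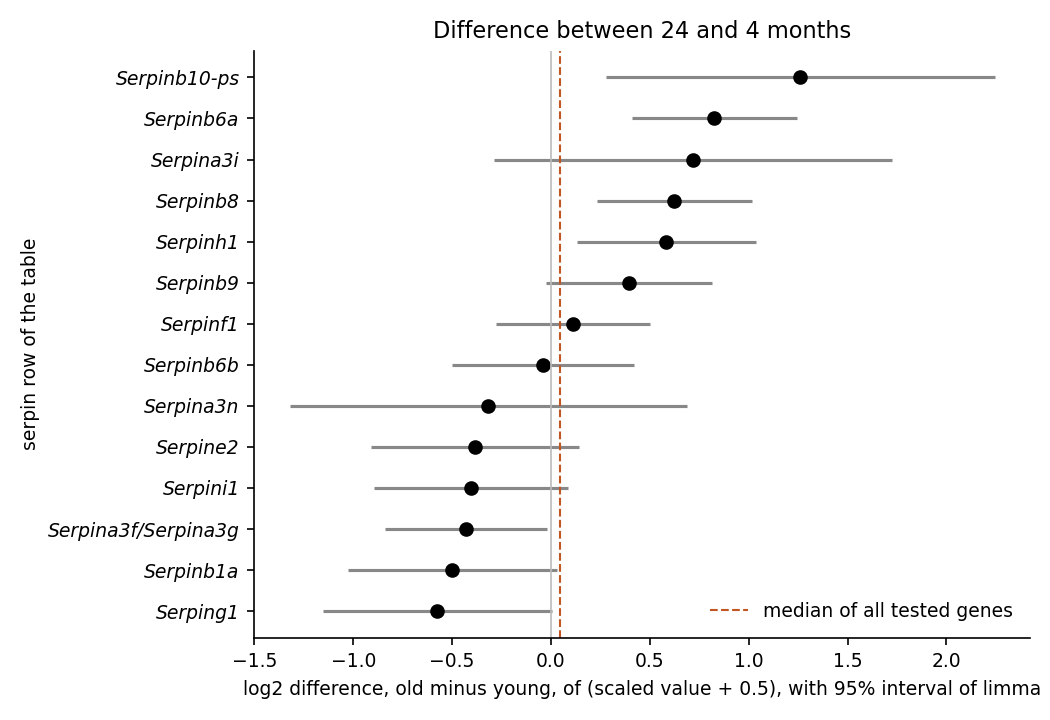
Log2 difference between old and young HSCs of the scaled value + 0.5 (horizontal axis) for the 14 tested serpin rows (vertical axis), with the 95% interval of limma as a line and the median of all tested genes dashed. The estimates run from -0.57 for Serping1 to 1.26 for Serpinb10-ps, and none passed the test after adjustment.

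The most abundant member was the row that joins Serpina3f and Serpina3g, on chromosome 12 from 105452754 to 105480144 in mm9. Serpina3g, also known as Spi2A, is an intracellular clade A serpin that inhibits lysosomal cathepsins. Its scaled values were 17635 and 18714.5 in young 13 and 14, and 12127.5 and 15016.5 in old 13 and 14. Both old replicates lay below both young ones, with means of 18175 ± 763.3 and 13572 ± 2043 (SD, n = 2 per age), and the log2 fold change was -0.43 (SE 0.17, limma adjusted p = 0.33), or -0.27 without old replicate 13. The authors' deposited table gives this row a log2 fold change of -0.45 and an FDR of 0.00335. Because the row joins both genes, their shares cannot be told apart. In GENCODE M21 transcripts, 15.5% of the 50-base stretches of Serpina3g and 10.6% of those of Serpina3f also occur in another gene, mostly neighbours of the same cluster.

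The start regions of both genes are shown because their single row carries the most serpin RNA in these cells. They are RefSeq windows of 250 bases before to 50 after the start in GRCm38.p6, chr12:104214294-104214593 for Serpina3f (the first of 2 starts listed) and chr12:104235897-104236196 for Serpina3g, both on the plus strand. Capitals mark every match, on either strand, to 4 short motifs, those of the GATA, RUNX and ETS factor families and of AP-1. The letters searched for GATA factors, which act in stem, erythroid and mast cells, were AGATAA. For RUNX factors, which act throughout blood formation, they were TGTGGT. No match overlapped another in the windows shown.
Serpina3f: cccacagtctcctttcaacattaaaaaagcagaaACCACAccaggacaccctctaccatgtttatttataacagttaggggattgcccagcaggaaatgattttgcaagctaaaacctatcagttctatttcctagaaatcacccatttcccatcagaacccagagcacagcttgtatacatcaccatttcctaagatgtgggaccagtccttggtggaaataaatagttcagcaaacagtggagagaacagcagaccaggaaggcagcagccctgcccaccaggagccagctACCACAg
Serpina3g: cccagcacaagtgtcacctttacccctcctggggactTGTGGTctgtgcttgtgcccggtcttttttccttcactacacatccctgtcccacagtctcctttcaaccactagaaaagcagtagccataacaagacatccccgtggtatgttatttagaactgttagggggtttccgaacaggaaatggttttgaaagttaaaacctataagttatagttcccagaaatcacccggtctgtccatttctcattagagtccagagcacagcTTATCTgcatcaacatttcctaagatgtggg
The Serpina3f window held 2 RUNX matches and the Serpina3g window 1 RUNX and 1 GATA match. Of all 32851 RefSeq windows of this length, 16.76% held a RUNX match and 11.18% a GATA match. In a global alignment 169 of 398 columns (42.5%) were identical between the 2 windows, with gap columns counted as not identical. Each window has 300 bases, and the opening stretch of the Serpina3f window recurs further inside the Serpina3g window. The windows are thus offset, and the share does not give the identity of the paired bases. A match describes letters only.

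The other tested rows of clade A were at the low end. Serpina3n, a secreted inhibitor of granzyme B and cathepsin G, had 35 and 21.5 in young and 27.5 and 17.5 in old replicates, which overlapped (log2 fold change -0.32, SE 0.42). Serpina3i, a cluster neighbour on chromosome 12 from 105501332 to 105507575, had 7.5 and 8.5 in young and 14.5 and 12.5 in old replicates. It passed the filter through the old replicates alone, so their lying above the young ones is no result. The technical libraries of a replicate differed by up to 1.18 on the log2 scale for this row, more than the fitted change of 0.72, and 15.9% of its 50-base stretches occur in another gene.

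The 2 smallest p-values were those of clade B rows, Serpinb6a and Serpinb8. Serpinb6a, on chromosome 13 from 34009787 to 34094663, is an intracellular inhibitor of trypsin-like and chymotrypsin-like proteases, cathepsin G among them. Its scaled values were 1690.5 and 1756 in young 13 and 14, and 2635.5 and 3543.5 in old 13 and 14. The young replicates were close together, the old ones further apart, and the groups did not overlap. The means were 1723 ± 46.3 in young and 3090 ± 642.1 in old HSCs, a fitted fold of 1.77 with a log2 fold change of 0.83 (SE 0.18, limma adjusted p = 0.0691, rank 604 of 18318 by p). The authors' deposited table gives 0.81 with an FDR of 1.43e-09. The span of Serpinb6a holds 2 rows on the opposite strand, Nqo2 with a mean of 1356 per library and 1110046J04Rik with 29.1, and nothing in the sources used here says that counting used strand.

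Serpinb8 and Serpinb10-ps are neighbours on chromosome 1, with 40.7 kb between them, and both had old replicates above young ones. Serpinb8, whose human counterpart inhibits the proprotein convertase furin, had 661.5 and 581.5 in young and 902.5 and 1012.5 in old replicates. Its means of 621.5 ± 56.6 and 957.5 ± 77.8 differed by 0.62 on the log2 scale (SE 0.17, adjusted p = 0.132). Serpinb10-ps, named as a pseudogene in the file and listed as a synonym of the coding gene Serpinb10 in RefSeq for GRCm38.p6, had 106.5 and 263 in young 13 and 14, and 345 and 467.5 in old 13 and 14. It had the largest estimate of the members, 1.26 on the log2 scale (SE 0.42, adjusted p = 0.221), and also the widest gap between young replicates of all tested members. Without young replicate 14 the estimate was 1.91 and passed (adjusted p = 0.0373), and without young replicate 13 it was 0.61. Young 14 was also the replicate with the highest sums of neutrophil and of granulocyte and monocyte progenitor markers, and the part of those cells in this gap was not tested. The row 3.4 kb before it, Serpinb2, the plasminogen activator inhibitor PAI-2, was 30 in young 14 and between 2.5 and 4 in the other 3 replicates, and shares 6.97% of the 50-base stretches of Serpinb10 transcripts.

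The start windows of Serpinb6a, Serpinb8 and Serpinb10 are shown because these rows had the largest estimates above 0 in clade B. They lie at chr13:34002745-34003044 on the minus strand (the first of 2 starts listed for Serpinb6a), chr1:107589756-107590055 and chr1:107528753-107529052, both on the plus strand, in GRCm38.p6, with the same 4 motifs in capitals.
Serpinb6a: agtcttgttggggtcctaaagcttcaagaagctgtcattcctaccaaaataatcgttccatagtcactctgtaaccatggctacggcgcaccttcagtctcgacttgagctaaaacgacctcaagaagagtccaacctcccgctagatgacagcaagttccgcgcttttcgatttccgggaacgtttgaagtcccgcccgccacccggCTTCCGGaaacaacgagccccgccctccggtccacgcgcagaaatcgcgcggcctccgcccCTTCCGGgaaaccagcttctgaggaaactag
Serpinb8: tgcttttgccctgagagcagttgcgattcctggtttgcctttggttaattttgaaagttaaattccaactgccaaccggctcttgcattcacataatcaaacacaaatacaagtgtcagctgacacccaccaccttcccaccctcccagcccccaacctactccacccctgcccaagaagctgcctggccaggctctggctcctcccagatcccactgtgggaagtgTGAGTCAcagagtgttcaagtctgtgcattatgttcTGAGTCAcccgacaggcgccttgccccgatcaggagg
Serpinb10: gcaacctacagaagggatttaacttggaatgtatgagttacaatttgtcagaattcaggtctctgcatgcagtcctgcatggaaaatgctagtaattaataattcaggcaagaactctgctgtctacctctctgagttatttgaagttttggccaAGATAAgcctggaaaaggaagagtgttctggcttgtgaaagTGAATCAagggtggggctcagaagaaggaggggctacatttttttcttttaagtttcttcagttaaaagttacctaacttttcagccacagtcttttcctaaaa
The letters of the ETS family, CCGGAAG, occurred at 2 places in the Serpinb6a window and are found in 8.86% of all windows. That window also had 25 CpG dinucleotides, against a median of 7 over all windows and 0 in the Serpinb10 window. The window of the second start listed for Serpinb6a had 5 CpG dinucleotides and 0 matches to the 4 motifs. Which start these cells use was not tested. The letters TGANTCA of AP-1, found in 7.81% of all windows, occurred at 2 places for Serpinb8, at positions -23 and 13 counted from 0 at the start base, and at 1 for Serpinb10, at position -54, which also held 1 GATA match. Of the 15 windows of tested members found in the table, those of Serpinb8 and Serpinb10 were the 2 with an AP-1 match. No window was listed for Serpinb1a and Serping1.

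The 3 other tested clade B rows lie in the chromosome 13 cluster, which spans 1.16 Mb and holds 15 members, 4 of them tested. Serpinb1a, the intracellular inhibitor of neutrophil elastase, proteinase 3 and cathepsin G, had 3071 and 4299.5 in young and 2192 and 3019 in old replicates. The groups did not overlap, but old 14 came within 52 of young 13, and the log2 fold change was -0.50 (SE 0.22, adjusted p = 0.39). Its means were 3685 ± 868.7 and 2606 ± 584.8. The estimate was -0.26 without young replicate 14 and -0.27 without old replicate 13. Elane, the gene of neutrophil elastase, had 858 and 5774.5 in young 13 and 14, and 834 and 2521.5 in old 13 and 14. Ctsg, the gene of cathepsin G, had 387 and 2811.5 in young and 624 and 1412 in old replicates. Prtn3, the gene of proteinase 3, had 4457 and 6940 in young and 7700.5 and 9944.5 in old replicates. The log2 fold changes of these 3 targets differed in direction, at -0.62 for Elane, -0.15 for Ctsg and 0.65 for Prtn3. Serpinb1a was also higher in replicate 14 than in replicate 13 at each age, by 0.49 on the log2 scale in young and 0.46 in old HSCs. This was common among the 14 tested members, of which 9 were higher in young 14 than in young 13. In old HSCs 11 of the 14 were higher in replicate 14. Whether granulocyte-lineage RNA had a part in the level of Serpinb1a was not tested. Serpinb9, the inhibitor of granzyme B, had 1958.5 and 2038.5 in young and 2261.5 and 3054.5 in old replicates (log2 fold change 0.40, SE 0.18, adjusted p = 0.392). Without old replicate 14 the estimate was 0.18, and without old replicate 13 it was 0.61. Its target Gzmb had between 4 and 14 in the 4 replicates. Serpinb6b, a paralog of Serpinb6a, had 853.5 and 959 in young and 757 and 1022.5 in old replicates. These overlapped, with a log2 fold change of -0.04 and a 95% interval from -0.50 to 0.42. For Serpinb6a the interval ran from 0.41 to 1.24, and the difference between the paralogs was not tested.

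**Figure D4:**
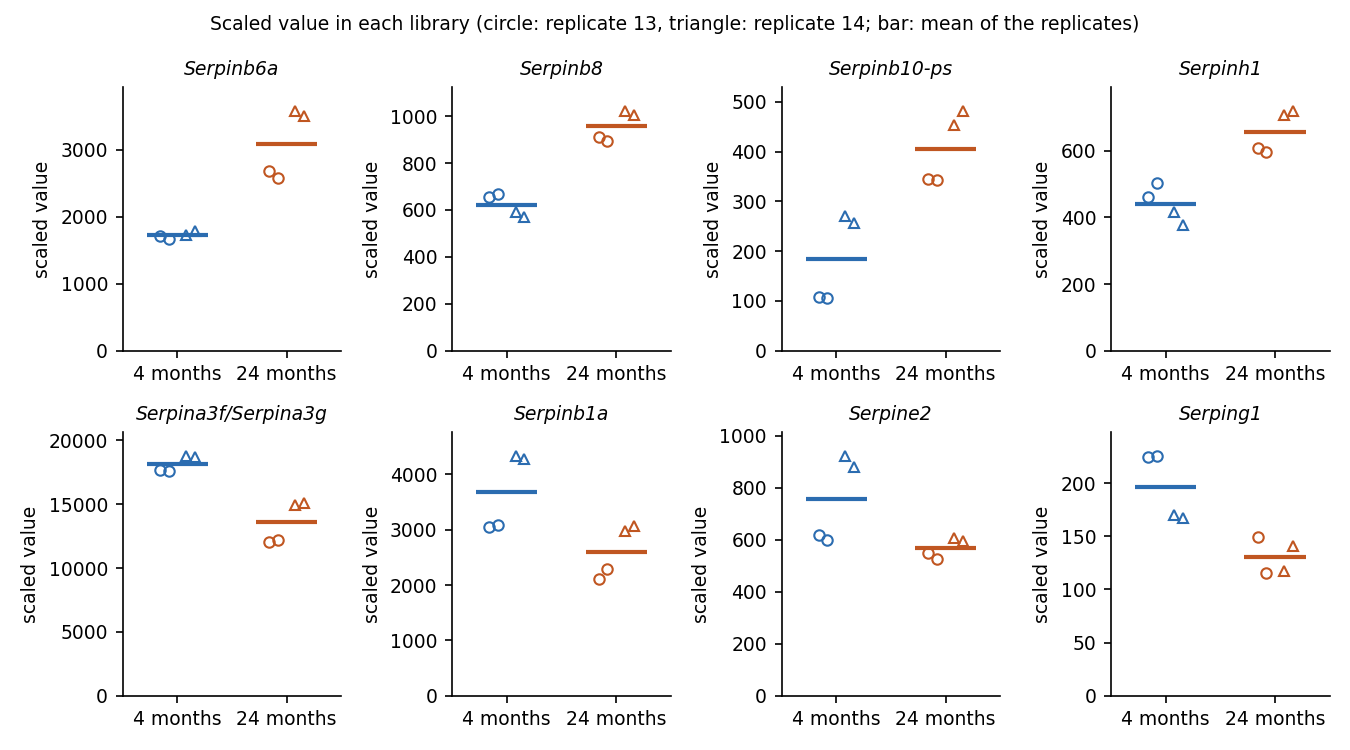
Scaled value in each of the 8 libraries (vertical axis from 0) at 4 and 24 months (horizontal axis) for 8 serpin rows, with circles for replicate 13, triangles for replicate 14 and bars for the mean of the replicates. The technical libraries of a replicate lie furthest apart, relative to the level, for Serping1. Old and young libraries overlap in 2 of the rows, Serpinb1a, where an old library reaches 3065 and a young one 3049, and Serpine2, with 606 and 600.

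The remaining clades are mostly secreted proteins, and clades E, F, G, H and I had 1 tested member each. Serpinf1 encodes PEDF, a secreted serpin without inhibitory activity that is known for blocking vessel growth, and had the second highest mean FPKM of the members, though Serpinb1a was above it in young 14 (45.0 against 41.3). It had 3314 and 3067 in young and 3048.5 and 3882.5 in old replicates, which overlapped, and differed by 0.11 on the log2 scale (SE 0.16, adjusted p = 0.844). Serpinf2, alpha-2-antiplasmin, lies 9.1 kb away on chromosome 11 and had at most 3.5 in any replicate. Serpinh1 encodes HSP47, a chaperone of the endoplasmic reticulum that binds folded collagen and inhibits no protease. It had 481.5 and 396.5 in young and 602 and 713 in old replicates, with means of 439 ± 60.1 and 657.5 ± 78.5 and a log2 difference of 0.58 (SE 0.19, adjusted p = 0.218).

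Serpine2, protease nexin 1, which inhibits thrombin and urokinase, had 610 and 901.5 in young and 537 and 600.5 in old replicates. Old 14 lay 9.5 below young 13, the log2 fold change was -0.38 (SE 0.22, adjusted p = 0.537), and it was -0.10 without young replicate 14 and -0.67 without young replicate 13. Serpini1, neuroserpin, an inhibitor of tissue plasminogen activator known from neurons, had 473.5 and 635 in young and 390.5 and 439 in old replicates (log2 fold change -0.40, SE 0.21, adjusted p = 0.471). Without young replicate 14 its estimate was -0.19, and without young replicate 13 it was -0.62. Serping1, the C1 inhibitor that restrains complement and contact proteases, had 224.5 and 168.5 in young and 132 and 129 in old replicates. Its log2 fold change was -0.57 (SE 0.24, adjusted p = 0.358), or -0.37 without young replicate 13, and its technical libraries differed by up to 0.37 on the log2 scale, the most among members above 1 FPKM. In each of these rows both old replicates lay below both young ones, and none passed the test.

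Many well known serpins were at or near 0 in these cells. The alpha-1-antitrypsin genes Serpina1a to Serpina1f, the kallikrein-binding Serpina3k, the protein C inhibitor Serpina5 and the thyroxine carrier Serpina7 were at 0 in all libraries, as were Serpinb3a, Serpinb3c, Serpinb3d, Serpinb7, Serpinb11 and Serpinb9c to Serpinb9g. Serpina3a, Serpina3d-ps, Serpina3j, Serpina4-ps1, Serpina9, Serpinb6d and Serpinb6e were also at 0 throughout. Of 8 hepatocyte markers 6 stayed under 10 in every replicate. Untested members with a replicate of at least 10 included Serpinb2, described above, and Serpina3b, at 5.5 and 11 in young but 1 and 2 in old replicates. In all, 47 untested members were under 10 in every replicate. Those of them above 0 were Serpina6, Serpina10, Serpina11, Serpina12, Serpina3c, Serpina3e-ps, Serpina3h and Serpina3m in clade A, and Serpinb12, Serpinb13, Serpinb1b, Serpinb1c, Serpinb3b, Serpinb5, Serpinb6c and Serpinb9b in clade B. Serpine3, Serpinf2, Serpini2, Serpinc1 and Serpind1 made up the rest. Serpinc1 had between 2 and 7.5, and Serpind1 between 1.5 and 5.5.

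Proteases, their partners and inhibitors of other families were taken from lists and described by counts beside the 2.55% called among all genes. The share of all tested genes at an unadjusted p under 0.05 in limma was 14%. Of 7 tested granule proteases, which were serine proteases except for the metalloprotease Cpa3, 0 passed in limma and in limma-voom, with 1 below 0.05 before adjustment. Prtn3, proteinase 3, came first by p, at 4457 and 6940 in young against 7700.5 and 9944.5 in old replicates (adjusted p = 0.276), then Cpa3, a mast cell carboxypeptidase, with 376.5 and 1092.5 against 301 and 441 (0.535). Of 7 tested genes of plasminogen activation, listed as targets and partners of clade E and F serpins, 0 passed in limma and limma-voom. In limma 3 of them were at an unadjusted p under 0.05. All 7 had an estimate below 0, as did 7969 of all 18318 tested genes. In that list Lrp1, the endocytic receptor that clears serpin and protease complexes, had 598.5 and 916.5 in young and 388 and 354 in old replicates (adjusted p = 0.0935), and Hpn, the membrane protease hepsin, 286 and 216 against 165.5 and 128 (0.222). Plat, the tissue plasminogen activator, was at 4 or less in every replicate.

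Of 12 tested coagulation, contact and complement genes 2 rose and 0 fell in limma, and limma-voom called 0. Procr, the protein C receptor, rose from 3387 ± 462.4 to 6054 ± 539.2 (adjusted p = 0.0484), and Thbd, thrombomodulin, which turns thrombin towards protein C, from 1059 ± 37.8 to 1833 ± 9.9 (adjusted p = 0.0381). Procr was also 1 of 9 markers of HSC sorting and identity, which all had an estimate above 0, with 2 passing in limma. Those 9 summed to 132345 and 127371 in young and to 145881.5 and 161841 in old replicates. Of 15 tested cathepsins, caspases and legumain, which are cysteine proteases except for the aspartic protease Ctsd, 1 rose. It was Ctsw, a cathepsin known from cytotoxic lymphocytes, at 398 and 333 in young against 987.5 and 932 in old replicates (log2 fold change 1.40, SE 0.18, adjusted p = 0.0127). The 10 T and NK cell markers summed to 1748.5 and 2796.5 in young and to 3251.5 and 5078 in old replicates. Klrb1c, a receptor of NK cells and the most abundant of them, had 372.5 and 470 against 2495 and 4036, while Cd8a and Gzma stayed under 10. Only 4 of these markers were tested, 2 with an estimate above 0 and 2 below, and their median log2 fold change was -0.38. Among them 1 passed as higher and 0 as lower. The part of such cells in the Ctsw values was not tested. Of 16 tested protease inhibitors that are not serpins 2 rose and 0 fell. Spint1, a Kunitz-type inhibitor of membrane serine proteases, rose from 27.5 ± 1.4 to 310 ± 0.7 (adjusted p = 0.00197), and Timp3, a metalloprotease inhibitor bound to matrix, from 1383 ± 317.1 to 3037 ± 491.1 (adjusted p = 0.0394). The medians of these 3 lists were 0.23, 0.26 and 0.31 on the log2 scale, against 0.04 for all genes. Without old replicate 13, or without old replicate 14, 0 of all genes passed, these and the collagens included, with 3669 and 1933 genes at an unadjusted p under 0.05.

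Among 23 tested collagens and collagen folding genes, the partners of Serpinh1, 5 fell and 1 rose, with a median log2 fold change of -0.19. Those that fell were Col1a1, Col4a2, Col5a2, Col3a1 and Col5a1, collagen chains of fibrils or basement membrane, and the one that rose was Col18a1, the chain that holds endostatin. Col3a1 fell from 156.8 ± 4.6 to 29 ± 18.4 (adjusted p = 0.0382). Serpinh1 itself had both old replicates above both young ones, without passing. The 11 stroma markers, which include Col1a1 and Col3a1, summed to 12259 and 12945 in young and 9123 and 9738 in old replicates. Bgn, the most abundant of them, had 5064 and 5104 in young and 5809 and 6640.5 in old replicates. Of the 11, 10 had an estimate below 0 and 1 above, with a median log2 fold change of -0.70. The part of stroma cells in the collagen values was not tested.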

How the data were processed

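PolyA-selected RNA of sorted HSCs was sequenced, with RNeasy Micro extraction and a TruSeq kit, per the labels' protocols. Per the submitters' processing notes, mm9 was the build, and DESeq is listed with no version. How reads were aligned and counted is not given in the sources used here. Deposited values named like counts are a score: the authors multiplied reads by 1 factor per library and rounded them. This was checked on the whole numbers that libraries skip or hold in excess, which gave factors from 0.6171 to 1.8389. The deposited FPKM is that score times 1 constant per gene. For each row the authors' deposited table adds an FDR (adjusted p-value) and a log2 fold change. Values of technical libraries were averaged, and limma 3.58.1 under R 4.3.3 was run on log2(value + 0.5). The fit had a term for age, a variance trend and two-sided tests. Benjamini-Hochberg adjustment was over the 18318 rows with at least 10 in at least 2 replicates. In 10 simulations this fit called 17.6% of 2-fold, 67.6% of 4-fold and 89.8% of 8-fold changes. The simulations changed a small fixed number of genes and drew independent noise for each replicate. They left out the correlation of replicate differences between the ages given below, so the shares in these data can differ. Unchanged genes made up 3.39% of the simulated calls. A member that did not pass is thus not shown to be unchanged. A fold change of log2(value + 0.5) understates the change of low genes. Starts and ends are those of the files, which count from 1. Alternatives covered the pseudocount, filter, scaling, limma-voom, technical libraries, replicate block and each replicate left out. Members and lists were chosen with earlier results of these data known. By rule, every tested member was named, and in each related list every called gene up to 6, or the 2 with the smallest p. Elane, Ctsg, Gzmb and Plat were chosen as known targets after their values were seen. Sequences are from RefSeq (GRCm38.p6), matched by symbol or synonym for 13 of 15 tested genes. Longer motifs for interferon response and NF-kB were searched at first and left out after their matches were seen. The values of 1 untested member are not reported here.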

Additional observations from a re-analysis of the deposited data

How the results depend on the processing

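The count of serpins passing after adjustment was 0 in each direction, and stayed 0 with other pseudocounts, filters, scalings, limma-voom or a single technical library per replicate. Leaving out 1 replicate gave between 0 and 1 higher members, the 1 being Serpinb10-ps without young replicate 14, and between 0 and 0 lower ones. With the replicate number as a term (replicate block) 4 members passed as higher (Serpinb6a, Serpinb8, Serpinb10-ps and Serpinh1) and 2 as lower (the row of Serpina3f and Serpina3g, and Serpinb1a), but this fit called 15.1% of all genes and left 1 residual degree of freedom per gene. Across all genes the difference of replicate 13 from 14 correlated between the ages (r = 0.544), a hint from the data only, since the labels give a number and no shared litter or day. Direction turned for Serpina3n without young replicate 13 (0.029) or old replicate 14 (0.0028; range over replicates left out -0.66 to 0.029), for Serpinb6b without young replicate 14 (0.044) or old replicate 13 (0.18; range -0.26 to 0.18), and for Serpinf1 without old replicate 14 (-0.065; range -0.065 to 0.28), all on the log2 scale. The other 11 tested members kept their direction in every alternative in which they were tested. Serpina3i is 1 of them, and because it passed the filter through the old replicates alone, its kept direction is no result. Over all genes the count called was 467, against 293 with the lower-numbered technical library, 274 without young replicate 13, 187 without young replicate 14, 2766 with the block, and 0 without a filter or without either old replicate; the cause was not tested.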
